A study of Mus musculus with 20 samples.

Results

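The chronic change beside an infarct was examined by setting the peri-infarct region against the contralateral hemisphere of mice that received no drug. This comparison used 10 of the 20 libraries of the series, 5 labelled vehicle peri-infarct and 5 labelled vehicle contralateral, taken by their labels. All mice were wild-type C57BL/6J animals of 18 months that had undergone DH stroke, in which the distal middle cerebral artery is occluded and hypoxia follows, and all tissue was collected 7 weeks later. The vehicle, sterile PBS, was injected 3 times per week for 6 weeks from week 1 after stroke, and the remaining 10 libraries came from mice given 4 g/kg HPBCD on the same schedule. The infarct itself was cut away, so the peri-infarct samples hold the tissue bordering it and the contralateral samples the matching tissue of the other side. No sham-operated or unoperated brain was compared, so a difference between the regions can come from either side. The titles number the replicates from 1 to 5, and the libraries of both regions with the same number share an animal identifier in their deposited names, so each number is treated as 1 animal and every change is taken within animals. None of the measurements checks which drug an animal received.

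A stroke leaves behind cleared or slowly cleared tissue ringed by reactive astrocytes. Microglia and infiltrating macrophages take up myelin and dead cells, digest them in lysosomes, and export the cholesterol that is released through transporters controlled by LXR. Complement proteins, interferon-stimulated genes and antigen-presenting molecules mark the innate response, while B and T cells can enter the tissue for weeks. Neurons in the border survive with altered synapses, axons and energy use, and the fast-spiking parvalbumin interneurons are the cortical cells with the highest firing rates.

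Each vehicle library held 17724292 to 20804353 gene counts (median 19208757), at which 3 counts, taken as the floor, equal 0.139 to 0.178 CPM, the count scaled to library size by TMM. A floor of this kind covers counting error alone, while the SE and SD values given below also hold spread between animals. In a principal component analysis of log2 CPM the first component held 45.1% of the variance and separated the regions, with contralateral libraries at 20.8 to 42.0 and peri-infarct libraries at -62.0 to -4.90. Peri-infarct replicate 2, at -4.90, lay nearest to the contralateral libraries. Neuronal markers were present in all 10 libraries, with a summed level of the pan-neuronal list of 10990 to 12505 CPM in contralateral and 7299 to 9774 CPM in peri-infarct libraries. Contralateral replicate 1 stood apart in tissue content. The summed level of 12 striatal markers was 4643 CPM there against 390 to 490 CPM in the other contralateral libraries and 580 to 2830 CPM in the peri-infarct libraries. Drd2, the D2 dopamine receptor of striatal neurons, was at 72.2 CPM in contralateral replicate 1, at 0.118 to 0.984 CPM in contralateral replicates 2 to 5 and at 3.12 to 43.8 CPM in peri-infarct tissue. The striatal list was called by edgeR for 0 of 12 genes with all animals (3 at an unadjusted p under 0.05, and 3 by DESeq2) and for 12 of 12, all higher in peri-infarct tissue, without animal 1. The part that unequal striatal tissue played in the other results was not tested.

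Of 15801 genes tested with edgeR, 3053 differed between the regions at an adjusted p under 0.05, which is 19.3% of the genes tested. Of these, 1615 (10.2% of genes tested) were upregulated and 1438 (9.1%) downregulated in the peri-infarct region. The libraries of the regions did not overlap for 2173 genes, 13.8% of those tested. List counts given below are to be read beside these shares. The upregulated genes changed more. Their median log2 change was 0.78, and 623 rose at least 2-fold, 116 at least 4-fold and 33 at least 8-fold. The downregulated genes had a median log2 change of -0.41, with 109 at or beyond 2-fold, 12 at or beyond 4-fold and 0 beyond 8-fold. The direction was the same in all 5 animals for 1394 of the upregulated and 1399 of the downregulated genes. The count of calls rested on single animals, since it was 491 without animal 5 and 1342 without animal 3, and it was 13, all upregulated, when a change had to exceed 2-fold by the test itself. In bulk tissue, fewer cells of a type and less RNA per cell cannot be told apart.

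The animals differed in how far their regions diverged. Over the called upregulated genes, the median log2 change was 0.70, 0.44, 1.03, 0.77 and 0.76 in animals 1 to 5, smallest in animal 2 and greatest in animal 3. Over the called downregulated genes it was -0.32, -0.38, -0.55, -0.33 and -0.50, so animal 2 did not stand below the others in its losses.

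The strongest rise was that of C3, the central protein of the complement cascade (ENSMUSG00000024164, chromosome 17, 57203970 to 57228136, minus strand, GRCm38). Its level was 0.827, 0.437, 2.13, 0.0544 and 0.344 CPM in contralateral replicates 1 to 5 and 37.9, 8.28, 175, 148 and 53.3 CPM in the peri-infarct libraries of the same animals. The regions did not overlap, and even animal 2, with the lowest peri-infarct level, rose by 3.95 on the log2 scale. The fitted log2 change was 6.71 (SE 0.50, adjusted p = 0.00397). Contralateral replicate 4 held less than the floor of C3, so the size of the fold depends on counts close to 0.

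Next among the 12 named rises came A2m, a broad protease inhibitor, and Lcn2, a secreted protein that binds iron carriers. A2m was at 0.716, 0.874, 0.888, 0.218 and 0.0491 CPM in contralateral tissue and at 19.6, 5.68, 90.8, 78.0 and 35.6 CPM beside the infarct, a log2 change of 6.12 (SE 0.66, adjusted p = 0.00416). Lcn2 went from 0.0551, 0.328, 0.888, 0.163 and 0.0982 CPM to 7.75, 1.43, 52.7, 49.2 and 2.89 CPM, a log2 change of 5.98 (SE 0.59, adjusted p = 0.00397). The Lcn2 level was thus high in animals 3 and 4 and under 10 CPM in the other 3.

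Lgals3, a galectin of activated microglia and macrophages, rose by 5.07 on the log2 scale, Itgax, the integrin chain CD11c, by 4.59, and Cybb, the catalytic subunit of the phagocyte NADPH oxidase, by 4.26. Cst7, an inhibitor of lysosomal cathepsins, rose by 4.03 and Gpnmb, a membrane glycoprotein of lipid-laden phagocytes, by 3.74. Their standard errors were 0.50 to 0.69 and their adjusted p-values 0.00397 to 0.00861. Serpina3n, a serine protease inhibitor of reactive astrocytes, rose by 3.73, from 8.11 to 11.9 CPM in contralateral libraries to 37.3, 92.4, 127, 221 and 329 CPM in ascending order. Tgm1, a transglutaminase that cross-links proteins, rose by 5.07, the transporter gene Slc43a3 by 3.83 and the secreted protein gene Ucma by 3.46. Among the peri-infarct libraries the Ucma level was the most even of these, at 1.79 to 6.94 CPM. In contralateral libraries it was at 0.0547 to 1.30 CPM, less even than Serpina3n. Contralateral means were 0.151 CPM for Tgm1, 0.379 for Slc43a3, 0.483 for Lgals3, 0.524 for Itgax, 0.625 for Cybb and 0.664 for Cst7. The floor was 0.139 to 0.178 CPM, so the size of these folds depends on low counts. The same holds for Ucma, A2m and Lcn2.

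**Figure D1:**
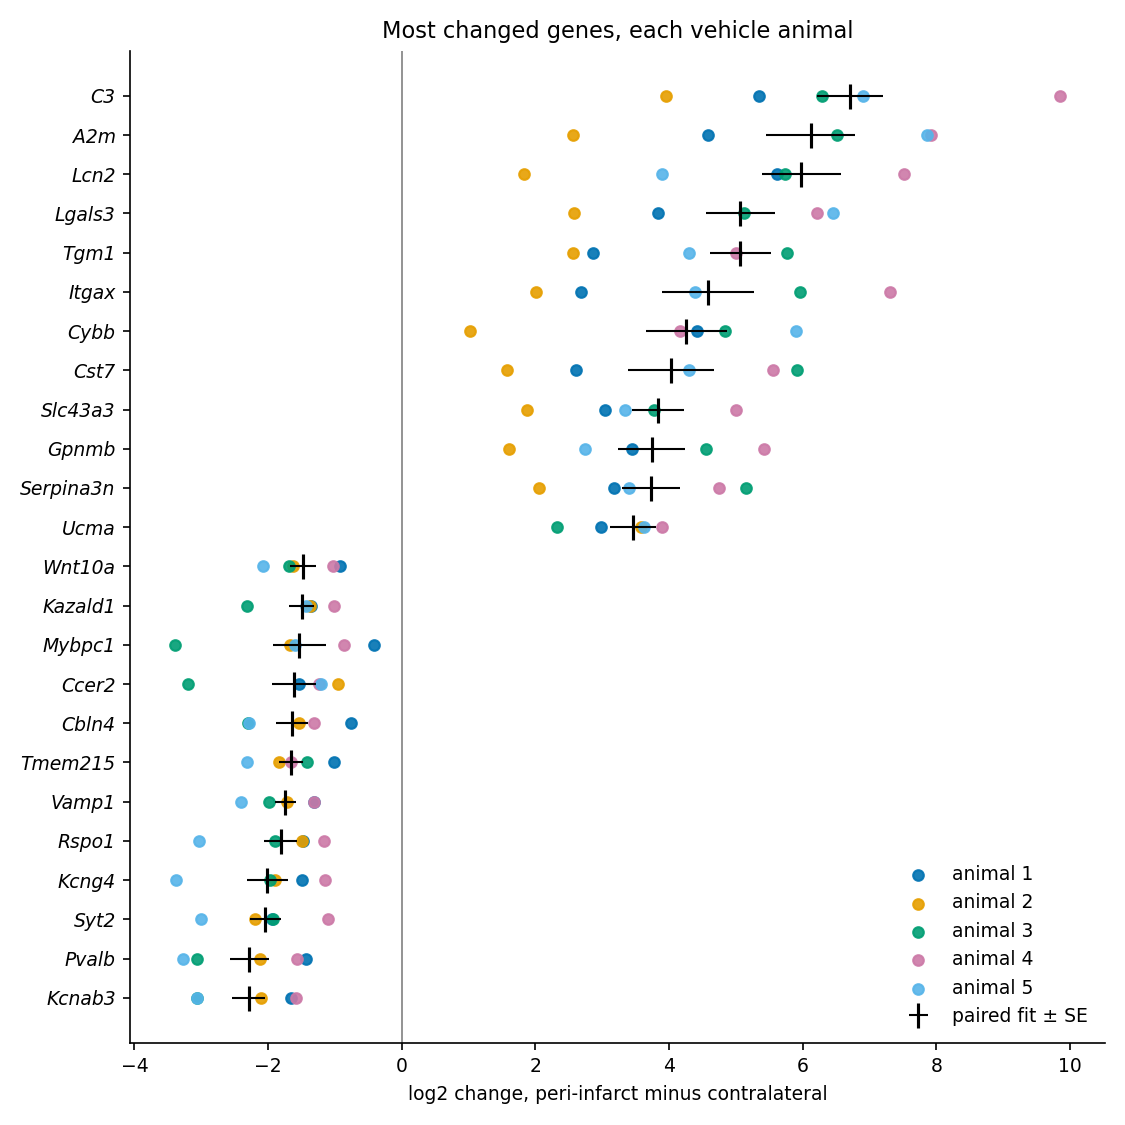
The 12 largest rises and the 12 largest falls between the regions of vehicle mice, among called genes that passed the filters. These asked for a named protein-coding gene, at least 5 CPM in the higher region and 1 direction in all animals. Each coloured point is the log2 change of 1 animal on the horizontal axis, the black tick the paired fit and the black line its SE; all points lie on the side of the fit, and animal 2 has the smallest rise for most upregulated genes.

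The 12 falls named were the largest among called protein-coding genes of at least 5 CPM in the higher region with 1 direction in all animals. They were of 2.78- to 4.88-fold. Pvalb, the parvalbumin that buffers calcium in fast-spiking interneurons (chromosome 15, 78191114 to 78206400, minus strand), was at 85.4, 140, 106, 49.3 and 125 CPM in contralateral replicates 1 to 5 and at 31.7, 32.0, 12.6, 16.7 and 12.8 CPM in peri-infarct replicates 1 to 5. The lowest contralateral level exceeded the highest peri-infarct level, and the log2 change was -2.28 (SE 0.29, adjusted p = 0.00482). Kcnab3, a potassium channel beta subunit, changed in almost the same measure, from 90.2, 148, 95.1, 57.3 and 138 CPM to 28.7, 34.3, 11.3, 19.0 and 16.4 CPM (log2 change -2.29, SE 0.25, adjusted p = 0.00416). Syt2, a calcium sensor of fast release, had a log2 change of -2.04 and Vamp1, a vesicle SNARE, of -1.74. The potassium channel subunit gene Kcng4 had a log2 change of -2.01 and Cbln4, an organiser of inhibitory synapses, of -1.64.

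Rspo1, a secreted enhancer of Wnt signalling, was at 32.4, 43.1, 30, 18.6 and 43.8 CPM in contralateral and at 11.5, 15.1, 8.02, 8.25 and 5.26 CPM in peri-infarct libraries (log2 change -1.81, SE 0.25, adjusted p = 0.00565). The ligand Wnt10a had a log2 change of -1.48. Tmem215, Ccer2, Mybpc1 and Kazald1, at -1.66, -1.61, -1.53 and -1.5, completed the list. Mybpc1 was not called without animals 2, 4 or 5, each in turn, with adjusted p-values of 0.0639, 0.0514 and 0.117. Ccer2 and Cst7 were not called without animal 5, with adjusted p-values of 0.0644 and 0.0523.

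Reactive astrocyte genes were upregulated at the border. Of 20 genes tested, 15 were called higher and 0 lower, with a median log2 change of 1.76 where the median of all genes was 0.02. Gfap, the main intermediate filament of astrocytes, was at 239, 207, 309, 154 and 217 CPM in contralateral and 1171, 569, 2846, 1882 and 1819 CPM in peri-infarct tissue. That is a rise of 6.67-fold (log2 change 2.74, SE 0.30, adjusted p = 0.00416), with no overlap of the regions. Vim, the filament vimentin, rose by the same 2.74, while Nes and Synm, the other filament genes listed, were at log2 changes of 0.01 and 0.11 and were not called.

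Among surface proteins of reactive astrocytes, Cd44, a hyaluronan receptor, rose by 3.14 and had the smallest adjusted p-value of all genes (0.00227). It was at 1.64 to 3.48 CPM in contralateral and 11 to 35.4 CPM in peri-infarct libraries. Osmr, the oncostatin M receptor, rose by 2.38, Emp1 by 2.40 and S1pr3, a sphingosine phosphate receptor, by 1.74. The secreted genes Tnc and Timp1 rose by 1.70 and 2.65. The transcription factors Stat3 and Sox9 rose by 0.76 and 0.84 with narrow errors (SE 0.09 each). Without animal 2 the count was 18, and without the other animals it was 11 to 13.

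Of 16 homeostatic astrocyte genes tested, 5 were called higher, against 10.2% of all genes, and 0 lower, and the median log2 change was 0.09. Aqp4, the water channel of astrocyte endfeet, rose by 1.46, from 105 ± 11.1 to 307 ± 125 CPM (SD, n = 5 each). The glutamate transporter Slc1a3 rose by 0.56, Mlc1 by 0.54, the gap junction gene Gja1 by 0.59 and S100b by 0.43. Slc1a2, the main glutamate transporter, was at 2670 ± 172 and 2932 ± 541 CPM and was not called (adjusted p = 0.49). Without animal 5, 0 of the 16 were called, and without animal 3 or animal 4 it was 3.

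Microglial genes rose both in their homeostatic and in their disease-associated part. All 12 homeostatic genes tested were called higher, with a median log2 change of 0.95. For 11 of them the regions did not overlap, against 13.8% of all genes. P2ry12, the purine receptor of surveying microglia, rose by 0.44, from 46.8 ± 4.10 to 64.1 ± 11.5 CPM (SD, n = 5 each). Csf1r, the receptor on which microglia depend for survival, was at 70.1 to 80.8 CPM in contralateral libraries and at 152, 114, 286, 171 and 166 CPM in peri-infarct replicates 1 to 5. It rose by 1.19 (SE 0.14, adjusted p = 0.00435). Cx3cr1, the fractalkine receptor, rose by 1.26, Tmem119 by 0.94 and the transcription factor gene Sall1 by 0.76. Without animal 5 the count fell to 5, and without any other animal it stayed at 11 or 12.

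In the list of microglia that are lipid-laden or disease-associated, 18 of 21 were called higher and 0 lower, with a median log2 change of 1.34. Trem2, the lipid-sensing receptor of these cells, was at 17.1, 16, 19.6, 11 and 15.3 CPM in contralateral and 38.5, 29.5, 111, 62.3 and 46.8 CPM in peri-infarct tissue, a log2 change of 1.73 (SE 0.25, adjusted p = 0.00679). Clec7a, a receptor for fungal glucans, rose by 4.54 and Cd68, a lysosomal membrane protein of phagocytes, by 2.11. Spp1, which encodes osteopontin, rose by 2.62 with a wide spread, from 10.7 ± 4.72 to 87.6 ± 78.8 CPM (SD, n = 5 each). The list held 5 calls without animal 5, 12 without animal 3 or animal 4 and 20 without animal 2. Median changes by animal were 1.00, 0.34, 2.27, 2.22 and 1.41.

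Of 7 perivascular macrophage genes tested, 1 was called, Ms4a7, which rose by 3.62 from 0.217 ± 0.138 CPM, a level near the floor. Mrc1, the mannose receptor, was at 1.38, 6.94, 1.89, 4.03 and 1.57 CPM in contralateral and 4.69, 2.71, 2.56, 4.45 and 1.30 CPM in peri-infarct libraries. The regions overlapped, and the log2 change was 0.12 (SE 0.40, adjusted p = 0.864).

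**Figure D2:**
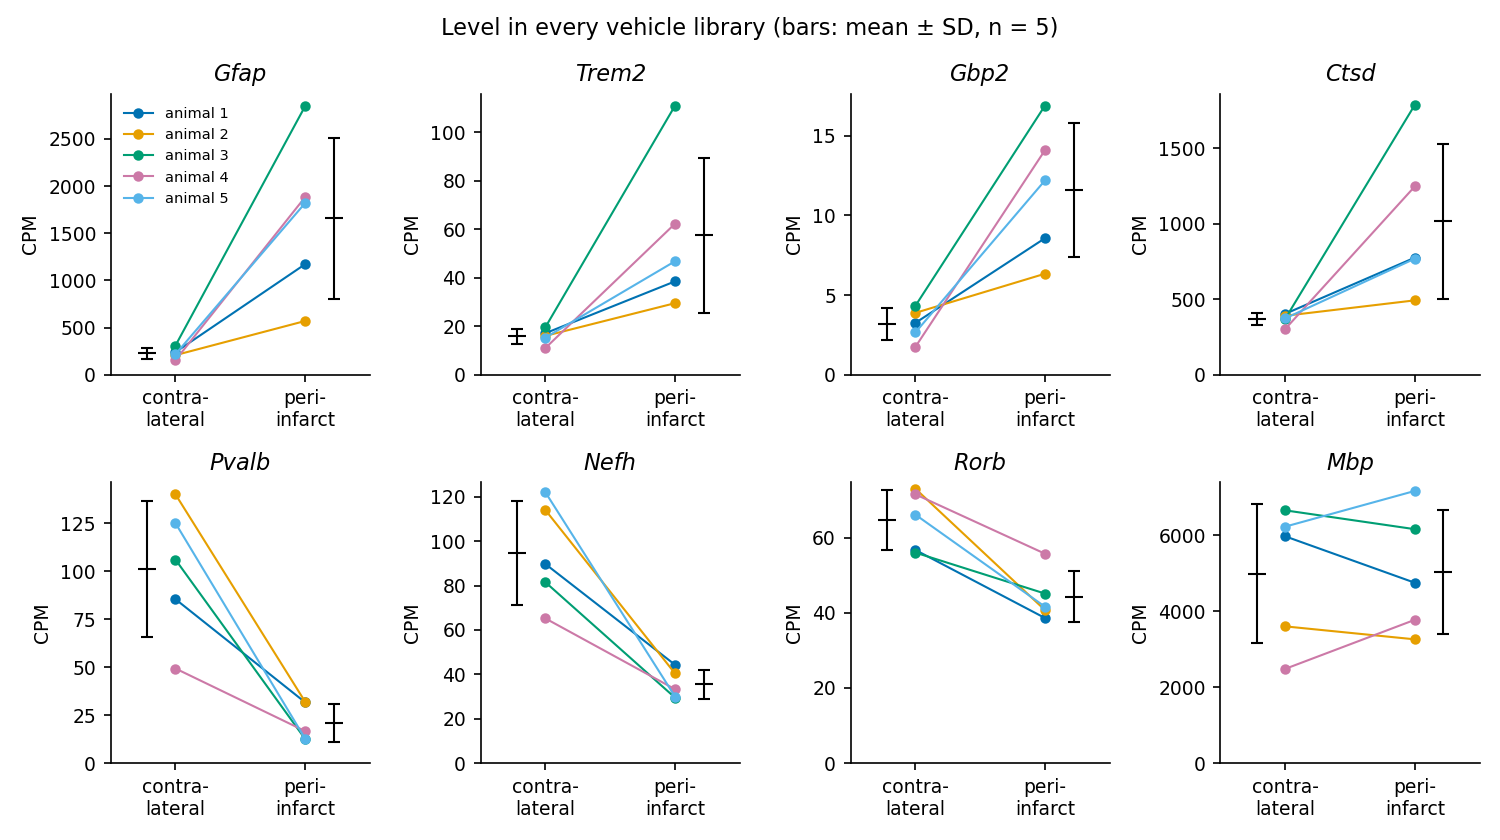
Levels of 8 genes in every vehicle library, in CPM from 0, with a line joining both regions of each animal and bars for the mean ± SD (n = 5). Gfap, Trem2, Gbp2 and Ctsd rise in every animal, Pvalb, Nefh and Rorb fall in every animal, and Mbp overlaps between the regions.

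Complement genes were called higher for 11 of 23 tested and lower for 0, with a median log2 change of 1.28. C1qa, C1qb and C1qc, the chains of the C1q complex that starts the classical pathway, rose by 1.90, 1.72 and 1.72. C1qa was at 114, 100, 96.2, 65.8 and 83.5 CPM in contralateral and 285, 187, 712, 399 and 292 CPM in peri-infarct tissue. C4b, the next component of that pathway, rose by 2.96, from 22.2 to 66.3 CPM to between 141 and 551 CPM. Of the convertase and terminal genes, 3 passed the filter on low counts and C3 alone was called. The regulator Clu rose by 0.70. Receptor genes rose as well, with C3ar1 at 2.38, and Itgam and Itgb2, the chains of complement receptor CR3, at 1.41 and 2.02.

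Receptors that read antibodies and microbial or damage signals were upregulated. Of 6 Fc receptor genes, 5 were called higher, and the inhibitory receptor Fcgr2b rose by 2.0, the high-affinity receptor Fcgr1 by 1.58 and the common signalling chain Fcer1g by 1.48. Of 21 Toll-like receptor and inflammasome genes, 15 were called higher and 0 lower, with 11 of the 12 receptors among them. Tlr2, which senses bacterial lipoproteins, rose most, by 3.02, from 0.592 to 1.67 CPM to between 3.89 and 16.6 CPM. The endosomal receptors Tlr7 and Tlr13 rose by 1.77 and 1.83. Nlrp3 and Pycard, which build the inflammasome, and Gsdmd, whose product forms its pore, rose by 1.47, 1.39 and 1.40. Myd88, the shared adaptor, had a log2 change of 0.49 and was not called (adjusted p = 0.193). Both counts fell without animal 5, to 2 Fc receptor genes and to 6 genes of the Toll-like receptor list.

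MHC and antigen presentation genes were called higher for 11 of 20 tested and lower for 0. The classical class I genes H2-K1 and H2-D1 rose by 1.29 and 1.17, and the peptide transporter Tap1 and the class I regulator Nlrc5 by 1.13 and 1.81. Class II genes were less settled. H2-Aa was at 2.98 ± 1.91 CPM in contralateral and 8.64 ± 5.22 CPM beside the infarct (SD, n = 5 each) and was not called (log2 change 1.58, adjusted p = 0.0669). Of the 6 class II genes tested, H2-DMa was called, with a log2 change of 0.58. The list was sensitive to the animals, with 18 calls without animal 2, 4 without animal 3, 2 without animal 4 and 0 without animal 5. Class I genes share sequence with one another, so reads may be divided among them.

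Of 28 interferon-stimulated genes tested, 18 were called higher, 0 lower and all 28 had a positive log2 change, with a median of 1.11. Among the factors, Irf8 rose by 1.70, Irf7 by 1.08 and Irf9 by 0.75. Among the effectors, Ifi27l2a rose by 2.30, Lgals3bp by 2.02, Gbp2 by 1.84 and Oasl2 by 1.79. Gbp2, a guanylate-binding protein, was at 3.25, 3.88, 4.32, 1.74 and 2.65 CPM in contralateral and 8.57, 6.34, 16.9, 14.1 and 12.2 CPM in peri-infarct replicates 1 to 5. Ifit1, which binds foreign RNA ends, rose by 1.14. The list held 3 calls without animal 5, 6 without animal 3 and 10 without animal 4.

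Promoters of the list were read for the interferon-stimulated response element, the site of STAT and IRF factors, spelled here as TTTC, any 2 bases and TTTC again, and searched on both strands. RefSeq promoter windows of GRCm38.p6, 250 bases before and 50 after a gene start, were matched by symbol for 21 of the 28 genes. Of their 27 windows, 13 (48.1%) held the element, against 439 of 14863 windows (2.95%) of all genes tested. Among the 19 windows of the called genes it was in 8 (42.1%), which is 7 of 14 genes. The list was chosen as interferon-stimulated genes, so its excess over all genes tells nothing of the change between the regions. The windows of the reactive astrocyte list held it in 0 of 20 and those of the lysosome list in 2 of 29. The promoters of the called genes with the element and the largest rises are shown up to 30 bases past the start, with the element in capitals, to show where the letters searched for lie. Where the element lies on the other strand, the capitals read as its reverse complement.
Gbp2, chr3:142620413-142620692, plus strand: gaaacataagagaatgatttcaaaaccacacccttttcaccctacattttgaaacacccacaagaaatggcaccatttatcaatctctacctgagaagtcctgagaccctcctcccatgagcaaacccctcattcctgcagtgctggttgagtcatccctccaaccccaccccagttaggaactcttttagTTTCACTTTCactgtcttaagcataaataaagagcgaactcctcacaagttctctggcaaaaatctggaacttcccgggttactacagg
Trim30a, chr7:104465164-104465443, minus strand: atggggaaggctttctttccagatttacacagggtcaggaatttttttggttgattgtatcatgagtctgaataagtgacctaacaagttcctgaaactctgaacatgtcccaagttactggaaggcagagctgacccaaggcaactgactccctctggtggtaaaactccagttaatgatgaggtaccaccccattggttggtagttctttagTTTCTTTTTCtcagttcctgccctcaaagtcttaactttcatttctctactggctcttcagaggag
Bst2, chr8:71537443-71537722, minus strand: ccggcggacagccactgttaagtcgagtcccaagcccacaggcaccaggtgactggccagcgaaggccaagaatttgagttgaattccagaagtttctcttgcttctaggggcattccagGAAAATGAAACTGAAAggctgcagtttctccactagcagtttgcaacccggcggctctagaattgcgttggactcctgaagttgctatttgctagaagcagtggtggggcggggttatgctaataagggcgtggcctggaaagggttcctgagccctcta
Ifitm3, chr7:141010715-141010994, minus strand: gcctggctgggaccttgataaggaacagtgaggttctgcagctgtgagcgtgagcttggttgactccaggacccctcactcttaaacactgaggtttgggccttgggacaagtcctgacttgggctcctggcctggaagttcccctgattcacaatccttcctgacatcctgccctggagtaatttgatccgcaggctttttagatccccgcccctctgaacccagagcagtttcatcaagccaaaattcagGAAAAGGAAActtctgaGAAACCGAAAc
The element began 59 bases before the start in Gbp2 and 36 before it in Trim30a. Bst2, which tethers virus particles to the cell, held 2 overlapping copies and rose by 1.49. Ifitm3, a membrane protein that blocks virus entry, held 2 copies just past the start and rose by 1.39. Trim30a rose by 1.54. A match describes the letters of the window and shows no binding.

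The STAT palindrome TTCNNNGAA was found in 22.2% of the windows of the interferon-stimulated list, 15% of those of the reactive astrocyte list, 3.45% of those of the lysosome list and 6.64% of all windows. The E-box CACGTG, the core of the site of lysosomal regulators, was found in 31% of the windows of the lysosome list and 9.45% of all windows, and in 0 of the interferon-stimulated windows. Among the 16 windows of the called lysosomal genes the E-box was in 4 (25%). The shares of the full lists rest on 20 to 29 windows per list.

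Of 15 chemokine genes tested, 7 were called higher and 2 lower. Of the 9 ligands 4 were called higher and 2 lower, and of the 6 receptors 3 were called higher. Cxcl16, a membrane-bound chemokine that also takes up oxidised lipid, rose by 2.42 and Cxcl5 by 2.56, and the receptor Cxcr4 rose by 2.86. Cxcl14 and Cx3cl1, both made by neurons, were the genes called lower. Cx3cl1, the neuronal ligand of Cx3cr1, was at 571 ± 48.2 and 469 ± 38.1 CPM (SD, n = 5 each), a log2 change of -0.28 (SE 0.07, adjusted p = 0.0283). Ccl2, a monocyte attractant, stayed under the filter, at 0.503 ± 0.41 CPM in peri-infarct tissue. The count of higher calls was 11 without animal 2 and 15 by DESeq2, and that of lower calls was 0 without animal 3 or animal 5 and 1 without any other animal.

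The IL-6 family and STAT3 list was called higher for 8 of 14 genes and lower for 0. The receptor chains Il6st and Il6ra rose by 0.71 and 1.02, and the STAT3 targets Socs3, Bcl3 and Cebpd by 0.94, 2.5 and 1.5. Il6 itself was under the filter, with a mean of 0.078 CPM beside the infarct. The count of 8 was 5 without animal 3 and 3 without animal 5. In the TGF-beta list, 11 of 32 genes were called higher and 0 lower, among them the ligand Tgfb1 (1.32), the receptors Tgfbr1 (1.10) and Tgfbr2 (1.01), and the targets Tgfbi (1.59) and Id3 (1.27), all as log2 changes. The share of the TGF-beta list, though above the 10.2% of all genes, fell to 4 of 32 without animal 3 and to 2 without animal 5.

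Lymphocyte genes were scarce. Of 18 T and cytotoxic lymphocyte genes, 3 passed the filter on low counts and edgeR called 0, with 2 at an unadjusted p under 0.05. Run without that filter, DESeq2 called 7 higher and edgeR 8. With the filter, edgeR called 10 higher when all 20 libraries were in 1 fit, and 2 without animal 1 or animal 2. Cd3d, a chain of the T cell receptor complex, had 0 counts in all 5 contralateral libraries and 0.102, 0.102, 0.569, 0.556 and 0.186 CPM in peri-infarct replicates 1 to 5. Cd3e was at 0 to 0.276 CPM in contralateral libraries and reached 2.73 and 1.90 CPM in peri-infarct replicates 3 and 4.

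B and plasma cell genes were called higher for 5 of 7 tested and lower for 1. Igkc, the constant part of the kappa light chain, was at 0.606, 0.765, 6.04, 0.381 and 3.24 CPM in contralateral and 12.3, 21.2, 10.9, 27.4 and 7.18 CPM in peri-infarct tissue (log2 change 3.08, SE 0.77, adjusted p = 0.0302). Jchain, which joins antibody units, rose by 2.24. Ighg2c went the other way, with a log2 change of -0.78. Cd22, a B cell receptor that microglia can also carry, rose by 3.36. The count of 5 fell to 1 without animal 1 or animal 5, to 3 without animal 2 and to 2 without animal 4, and lower calls numbered 1 without animal 2 and 0 without each of the others. Of 9 neutrophil genes 1 passed the filter, Csf3r, the receptor of a granulocyte growth factor, which rose by 1.62, and S100a8 stayed below 1 CPM in 9 of 10 libraries.

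**Figure D3:**
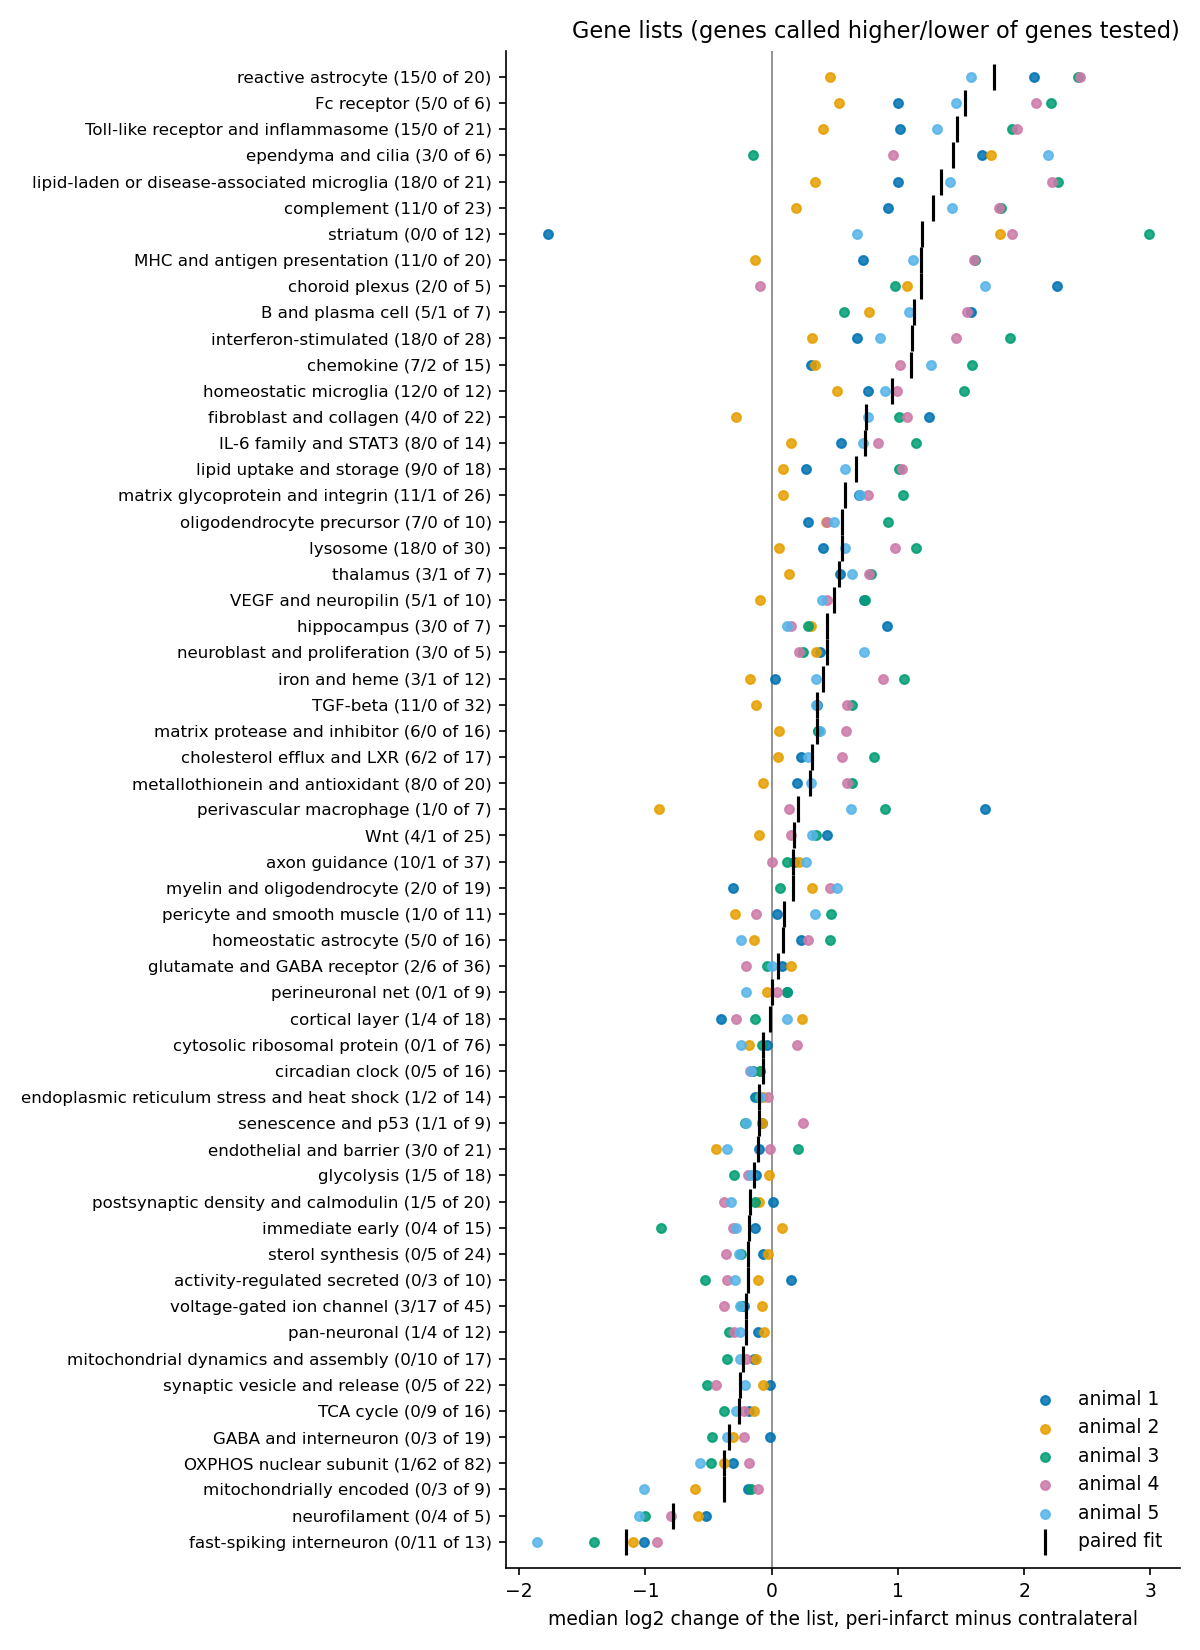
Median log2 change of each gene list with at least 5 genes tested, by animal (coloured points) and in the paired fit (black tick), ordered by the fit, with the numbers of genes called higher and lower of those tested. Immune, reactive glial, ependymal, striatal and choroid plexus lists lie at the top and fast-spiking, neurofilament and OXPHOS lists at the bottom. Animal 1 lies far from the others for the striatal list.

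Of 24 sterol synthesis genes, 5 were called lower and 0 higher, and all 24 log2 changes were negative, with a median of -0.19. Insig1, which holds back the synthesis programme and is itself one of its targets, was at 94.9, 119, 106, 105 and 112 CPM in contralateral and 65.0, 79.2, 65.6, 76.1 and 71.7 CPM in peri-infarct libraries (log2 change -0.58, SE 0.06, adjusted p = 0.00397). The enzymes Pmvk, Mvd and Cyp51 had log2 changes of -0.43, -0.39 and -0.33, and the sterol carrier Stard4 of -0.39. Srebf2, the master regulator, was at 201 ± 16 and 188 ± 9.32 CPM (SD, n = 5 each) and was not called. The count of 5 was 3 without animal 3, 1 without animal 5 and 8 once a trend with GC content and length was taken out.

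Part of the export and uptake genes rose. Of 17 cholesterol efflux and LXR genes, 6 were called higher and 2 lower. Abca1, the transporter that loads cholesterol onto apolipoproteins, was at 28.3, 29.4, 28.1, 27.1 and 25.7 CPM in contralateral and 68.3, 47.5, 187, 130 and 71.1 CPM in peri-infarct tissue (log2 change 1.69, SE 0.27, adjusted p = 0.00892). Apoe, the main lipid carrier of the brain, rose by 1.26, from 2894, 3568, 3310, 2723 and 2776 CPM to 6263, 3860, 15186, 9840 and 5599 CPM. Animal 2 scarcely differed in Apoe, with a log2 change of 0.11, and animal 3 rose by 2.20. Apoc1 rose by 3.0 and Mylip, an LXR target that degrades the LDL receptor, by 0.91. The LXR gene Nr1h2 and the transporter Abca7 were the 2 called lower, at -0.32 and -0.26. Higher calls of the efflux list numbered 3 without animal 3 and 2 without animal 5, while lower calls numbered 1 without animal 4 and 0 without each of the others.

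Of 18 lipid uptake and storage genes, 9 were called higher and 0 lower. Cd68 and Cxcl16, already named, led the scavenger receptors. Plin2, a coat protein of lipid droplets, rose by 1.08, Lpl by 1.06, Fabp7, a fatty acid binder of astrocytes, by 0.84 and the lysosomal lipase Lipa by 0.67. Npc1, which exports cholesterol from lysosomes, was at 71.2 ± 9.53 and 86.1 ± 15.2 CPM (SD, n = 5 each), and was not called (adjusted p = 0.0851). The count of 9 was 5 without animal 3 and 1 without animal 5.

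Lysosomal genes were called higher for 18 of 30 and lower for 0, with a median log2 change of 0.56. Proteases led. Ctss, a cathepsin of microglia, was at 127, 115, 122, 87.0 and 97.1 CPM in contralateral and 309, 214, 761, 427 and 338 CPM in peri-infarct tissue, a log2 change of 1.78. Ctsh rose by 1.46, Ctsc by 1.35 and Ctsd by 1.32. Among hydrolases, Man2b1 rose by 0.95 and Hexa by 0.85, and among membrane and regulatory genes Laptm5 rose by 1.34 and Grn, which encodes progranulin, by 0.98. The count was 3 without animal 5, 11 without animal 3 or animal 4 and 22 without animal 2.

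Iron and oxidative stress genes moved in part. Of 12 iron and heme genes, 3 were called higher and 1 lower. Slc11a1, the iron exporter of phagosomes, rose by 2.09, Hmox1, which breaks down heme, by 1.15 and the ferritin gene Ftl1 by 0.65, while Tfrc, the receptor for iron uptake, had a log2 change of -0.34. The 3 higher calls were 5 without animal 2 and without the replicate block, 1 without animal 3 and 0 without animal 5, and no gene of the list was called lower without animals 2 to 5, each in turn. Of 20 metallothionein and antioxidant genes, 8 were called higher and 0 lower, led by Gpx3 (1.48), Gpx8 (1.21) and Mt2 (1.04). Mt1, at a log2 change of 0.46, was not called (adjusted p = 0.0785). The count of 8 was 3 without animal 3 or animal 4 and 1 without animal 5. In place of 0 lower calls, DESeq2 gave 3, and edgeR gave 2 without animal 4, without the replicate block, with RLE scaling or with the GC and length trend taken out.

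Of 19 myelin and oligodendrocyte genes, 2 were called higher, Cldn11 (0.66) and Sox10 (0.35), a share near the 10.2% of all genes, and 0 lower. Mbp, myelin basic protein, was at 5968, 3599, 6652, 2482 and 6224 CPM in contralateral and 4746, 3258, 6156, 3773 and 7164 CPM in peri-infarct libraries, with a wider range between animals than between the regions of any animal (log2 change 0.04, SE 0.14, adjusted p = 0.854). Of 10 oligodendrocyte precursor genes, 7 were called higher and 0 lower. Pdgfra, the growth factor receptor of these precursors, was at 35.9, 42.5, 39.9, 47.0 and 35.5 CPM and at 59.5, 57.3, 76.5, 59.9 and 53.6 CPM (log2 change 0.61, SE 0.09, adjusted p = 0.00807). Enpp6 and Gpr17, which mark cells starting to differentiate, rose by 0.83 and 0.69. Without animal 1 the myelin count was 6, without any other animal and without the replicate block it was 0, and the precursor count was 1 without animal 5.

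Of 21 endothelial and barrier genes, 3 were called higher and 0 lower, a share close to the 10.2% of all genes. Higher calls numbered 1 without animal 5, and 2 genes were called lower without animal 3 or with the GC and length trend taken out. Cldn5, the tight junction protein of brain endothelium, was at 67.7 ± 15.1 and 55.3 ± 15.5 CPM (SD, n = 5 each) and Pecam1 at 23.5 ± 5.81 and 20.5 ± 5.56 CPM, and neither was called. The adhesion molecules Icam1 and Vcam1, which capture leukocytes and are also made by glia, rose by 1.67 and 0.88, and the junction gene Tjp1 by 0.38. In the VEGF and neuropilin list, 5 of 10 genes were called higher and 1 lower. Angpt1, a ligand that stabilises vessels, was at 1.82 to 6.04 CPM and 8.18 to 15.7 CPM, a log2 change of 1.84. Nrp2, Nrp1 and Vegfd rose by 1.12, 0.65 and 1.37, Vegfb was called lower at -0.34, and Vegfa was at -0.28 (adjusted p = 0.0539). Higher calls of the VEGF list numbered 3 without animal 1, 2 without animal 3 and 1 without animal 5, and Vegfb was not called without animal 3 or animal 5. Of 11 pericyte and smooth muscle genes, 1 was called higher, Pdgfrb, at 0.39, a share near the 10.2% of all genes. This count was 2 without animal 2 and 0 without each of the other animals.

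Scar matrix genes were called in part. Of 22 fibroblast and collagen genes, 4 were called higher, against 10.2% of all genes, and 0 lower. The 4 were Col5a2 (1.49), Col6a3 (0.72), Dcn (1.71) and Prelp (0.98). Col1a1, the chain of fibrous collagen, was at 3.14, 24.5, 7.82, 12 and 7.27 CPM in contralateral and 17.7, 8.13, 26.6, 49.5 and 9.23 CPM in peri-infarct tissue. It fell in animal 2, rose in the other 4 and was not called (log2 change 1.05, SE 0.56, adjusted p = 0.217). Without animal 2 the list held 14 calls in place of 4, and without the other animals 0 or 1. Of 26 matrix glycoprotein and integrin genes, 11 were called higher and 1 lower. Thbs4, a synapse-promoting glycoprotein of astrocytes, rose by 2.10, Lamb1 by 0.87 and the integrin Itgb5 by 1.07, while the integrin Itgav had a log2 change of -0.32. The 11 higher calls were 17 without animal 2 and 7 without animal 5, and lower calls numbered 0 without animals 1, 2 or 5. Of 16 matrix protease and inhibitor genes, 6 were called higher, among them Mmp2 (1.27), Mmp14 (1.11) and the inhibitor Timp2 (0.91, SE 0.09). Timp2 was at 188 to 302 CPM in contralateral and 352 to 482 CPM in peri-infarct libraries. The protease and inhibitor count was 3 without animal 1 or animal 4 and 2 without animal 3 or animal 5.

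Genes of fast-spiking interneurons were the most reduced list. Of 13 tested, 11 were called lower and 0 higher, against 9.1% of all genes called lower, with a median log2 change of -1.15. The libraries of the regions did not overlap for those 11, against 13.8% of all genes. Beside Pvalb, Syt2, Vamp1 and Kcnab3, the release protein Cplx1 had a log2 change of -0.90. Scn1a, the sodium channel that starts the spikes of these cells, was at 194, 222, 181, 177 and 205 CPM in contralateral and 96.0, 103, 68.3, 94.0 and 81.2 CPM in peri-infarct tissue (log2 change -1.15, SE 0.09, adjusted p = 0.00397). The potassium channel genes Kcna1 and Kcnc1 were at -0.82 and -0.77. The count held at 11 or 12 without each animal in turn, and the median stayed between -1.22 and -1.07.

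The perineuronal net list was called lower for 1 of 9 genes, a share near the 9.1% of all genes. Hapln4, a link protein that anchors the net, was at 121, 166, 147, 126 and 158 CPM in contralateral and 84.4, 74.0, 43.5, 61.1 and 61.5 CPM in peri-infarct tissue (log2 change -1.17, SE 0.16, adjusted p = 0.00529). Acan, the core protein of the net, was not called.

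Genes of interneurons at large were called in part. Of 19 GABA and interneuron genes, 3 were called lower and 0 higher, against 9.1% and 10.2% of all genes. Gad1, the enzyme that makes GABA, was at 385, 342, 326, 316 and 345 CPM and at 246, 214, 235, 231 and 190 CPM (log2 change -0.62, SE 0.08, adjusted p = 0.00482). Lamp5 and Npy, which mark other interneuron groups, had log2 changes of -1.40 and -0.95. Sst, the somatostatin gene of a further class, was at 307 ± 40.7 and 258 ± 27.6 CPM (SD, n = 5 each) and was not called (adjusted p = 0.1). Gad1 and Npy are also expressed in the striatum, and without animal 1 the count was 6.

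**Figure D4:**
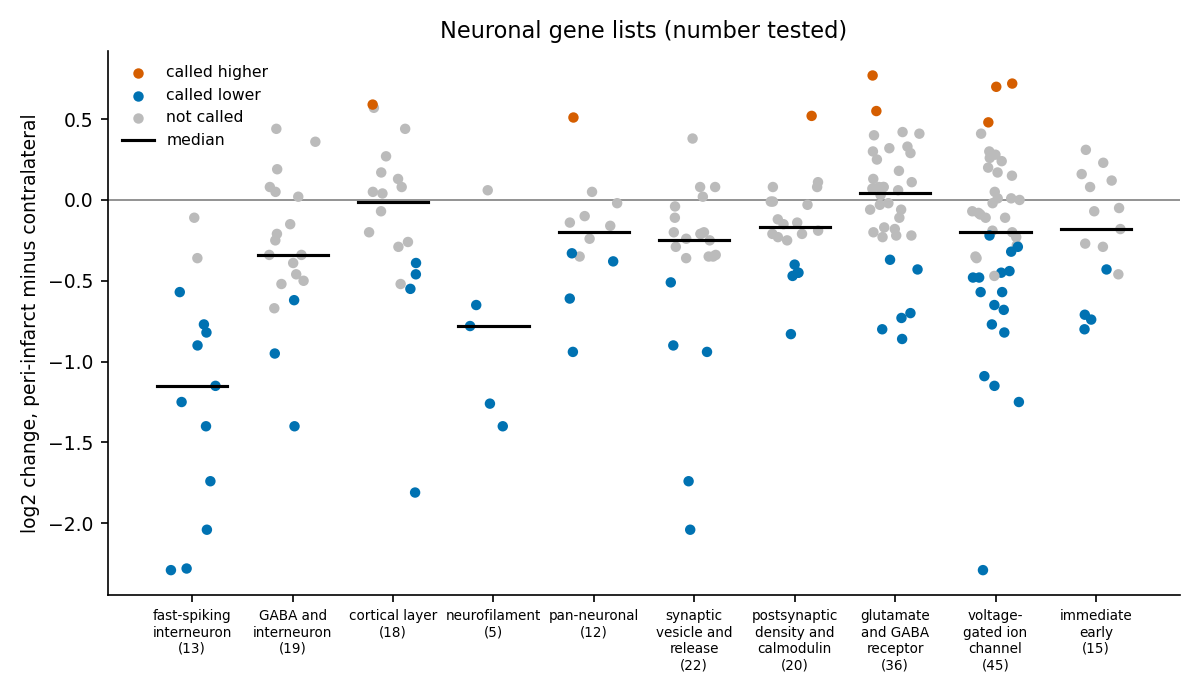
Log2 change of each tested gene of 10 neuronal lists between the regions, coloured by call, with the list median as a black line. Fast-spiking interneuron and neurofilament genes lie lowest, and the medians of the other lists lie between -0.34 and 0.05.

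Layer markers of the cortex were called in part. Of 18, 4 were called lower and 1 higher, against 9.1% and 10.2% of all genes. Rorb, the receptor that marks layer 4, was at 56.7, 73.0, 56, 71.5 and 66.1 CPM in contralateral and 38.6, 40.7, 45.1, 55.7 and 41.6 CPM in peri-infarct tissue (log2 change -0.55, SE 0.09, adjusted p = 0.00896). Rspo1, named above, is the other layer 4 gene called lower, and the upper-layer factors Cux1 and Cux2 were at -0.39 and -0.46. Etv1, a layer 5 factor, rose by 0.59. Of the 6 layer 6 genes, 0 were called. Without animal 5 the layer list held 1 lower and 0 higher calls, and higher calls numbered 2 without animal 1. Whether the dissected blocks held the layers in the same proportion was not tested.

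Genes shared by all neurons were called in part. Of 12 pan-neuronal genes, 4 were called lower and 1 higher, against 9.1% and 10.2% of all genes. Snap25, the SNARE protein of nerve terminals, was at 4312, 5285, 4667, 4466 and 5143 CPM and at 2618, 2969, 1871, 2449 and 2616 CPM, a fall to 0.52 of the contralateral level (log2 change -0.94, SE 0.10, adjusted p = 0.00416). Rbfox3, the neuronal nucleus marker, had a log2 change of -0.61 and Eno2 of -0.38. Gap43, a protein of growing axons, was called higher at 0.51. Lower calls numbered 2 without animal 3 or animal 5, and higher calls 1 without animal 4 and 0 without each other animal or without the replicate block. The median of the list was -0.20, against -1.15 for the fast-spiking list, and the difference between the lists was not tested.

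Of 5 neurofilament genes, 4 were called lower, against 9.1% of all genes. The regions did not overlap for these 4, against 13.8% of all genes. Nefm, the medium chain, was at 520, 488, 359, 380 and 530 CPM in contralateral and 194, 208, 192, 193 and 157 CPM in peri-infarct tissue (log2 change -1.26, SE 0.13, adjusted p = 0.00397). Nefh and Nefl, the heavy and light chains, were at -1.40 and -0.78, and Ina at -0.65. All 4 stayed called without each animal in turn.

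Synaptic genes were called lower in a minority. In the synaptic vesicle and release list, 5 of 22 genes were called lower and 0 higher, and 4 of these, Syt2, Vamp1, Snap25 and Cplx1, belong to the release machinery. The fifth, Rab3a, had a log2 change of -0.51, and Syn1, a vesicle protein of all terminals, was at 651 ± 78.4 and 602 ± 62.0 CPM (SD, n = 5 each) and not called. DESeq2 called 11 of the vesicle genes lower, and edgeR 9 with the GC and length trend taken out. In the postsynaptic density and calmodulin list, 5 of 20 were called lower and 1 higher. The scaffolds gave 0 calls of 8, with Dlg4 at a log2 change of -0.12. Nrgn, which holds calmodulin in dendritic spines, was at 2164 to 2836 CPM in contralateral and 1333 to 1521 CPM in peri-infarct libraries (log2 change -0.83, SE 0.09, adjusted p = 0.00416). The calcineurin subunit gene Ppp3r1 and the calmodulin gene Calm2 were at -0.47 and -0.45. The 5 lower calls of that list were 2 without animal 5 and 8 with the trend taken out, and higher calls numbered 1 without animal 4 and 0 without each of the others. Of 3 vesicular glutamate transporter genes, Slc17a6 was called lower, at -0.79, though not without animals 3, 4 or 5, and Slc17a7, the cortical form, was at 1398 ± 245 and 1312 ± 123 CPM (SD, n = 5 each).

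Of 36 glutamate and GABA receptor genes, 6 were called lower and 2 higher, against 9.1% and 10.2% of all genes. The GABA receptor subunit Gabrd had a log2 change of -0.80, and Gabrb1 rose by 0.55. The glutamate receptor genes Grm2, Grin2a and Grin1 were at -0.86, -0.43 and -0.37, and Grin3a rose by 0.77. Lower calls of the receptor list numbered 2 without animal 5, and higher calls 1 without animal 2, 6 without animal 4, 0 without animal 5 and 5 by DESeq2. Voltage-gated channel genes were called lower for 17 of 45 and higher for 3, against the same 9.1% and 10.2%. The calcium channel subunits Cacnb4, Cacng2 and Cacna1a were at -0.68, -0.57 and -0.48. The genes called higher were Scn3b (0.70), Cacna1h (0.72) and Kcnd3 (0.48). Between 11 and 18 of the channel genes were called lower without each animal in turn, the fewest without animal 5, and higher calls numbered 1 without animal 2 or animal 3 and 0 without animal 5.

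Genes that follow neuronal activity were partly reduced. Of 15 immediate early genes, 4 were called lower and 0 higher. Arc, which acts at active synapses, was at 150, 202, 290, 392 and 498 CPM in contralateral and 113, 176, 91.6, 252 and 232 CPM in peri-infarct libraries. The levels of the regions overlapped across animals, and Arc was lower beside the infarct in all 5 animals (log2 change -0.80, SE 0.20, adjusted p = 0.0291). Egr1 and Ier2 were at -0.74 and -0.71, and Fos was at -0.29 (adjusted p = 0.226). Without animal 5, 0 of the 15 were called, without animal 3 or animal 4 it was 2, and without the replicate block it was 1. Of 10 activity-regulated secreted genes, 3 were called lower, Nrn1 (-0.53), Vgf (-0.44) and Scg2 (-0.44), and Bdnf, at -0.32, was not. None of the 3 was called without animals 3, 4 or 5.

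Of 16 clock genes, 5 were called lower and 0 higher. Hlf, an output factor of the clock, was at 318, 350, 287, 314 and 332 CPM and at 179, 188, 142, 181 and 170 CPM (log2 change -0.90, SE 0.06, adjusted p = 0.00397). Ciart, Nr1d2 and Cry1 were at -0.58, -0.31 and -0.29, while Arntl, the core activator, was at 0.01. The clock count was 3 without animals 1, 2 or 4 and without the replicate block, and 1 without animal 3 or animal 5. The part that time of day at collection played in these genes was not tested.

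Nuclear genes of oxidative phosphorylation (OXPHOS) fell by a small amount. Of 82 tested, 62 were called lower and 1 higher, against 9.1% of all genes called lower, and 80 log2 changes were negative, with a median of -0.38. Called lower were 31 of 37 complex I genes, 2 of 4 complex II, 7 of 9 complex III, 11 of 15 complex IV and 11 of 17 complex V genes, with medians of -0.38, -0.23, -0.36, -0.44 and -0.38. Ndufa4 was at 140, 167, 159, 125 and 157 CPM in contralateral and 107, 113, 96.5, 99.5 and 96.5 CPM in peri-infarct tissue, a fall of 1.46-fold. Cox7b, Cox6c, Atp5j and Uqcrq had log2 changes of -0.59, -0.54, -0.48 and -0.47. The exception was Cox6b2, a complex IV form found mainly in testis, which rose by 1.46 from 0.768 ± 0.242 CPM. The calls depended on the animals, with 6 lower without animal 5 and 25 without animal 3, while the list median stayed between -0.43 and -0.33.

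**Figure D5:**
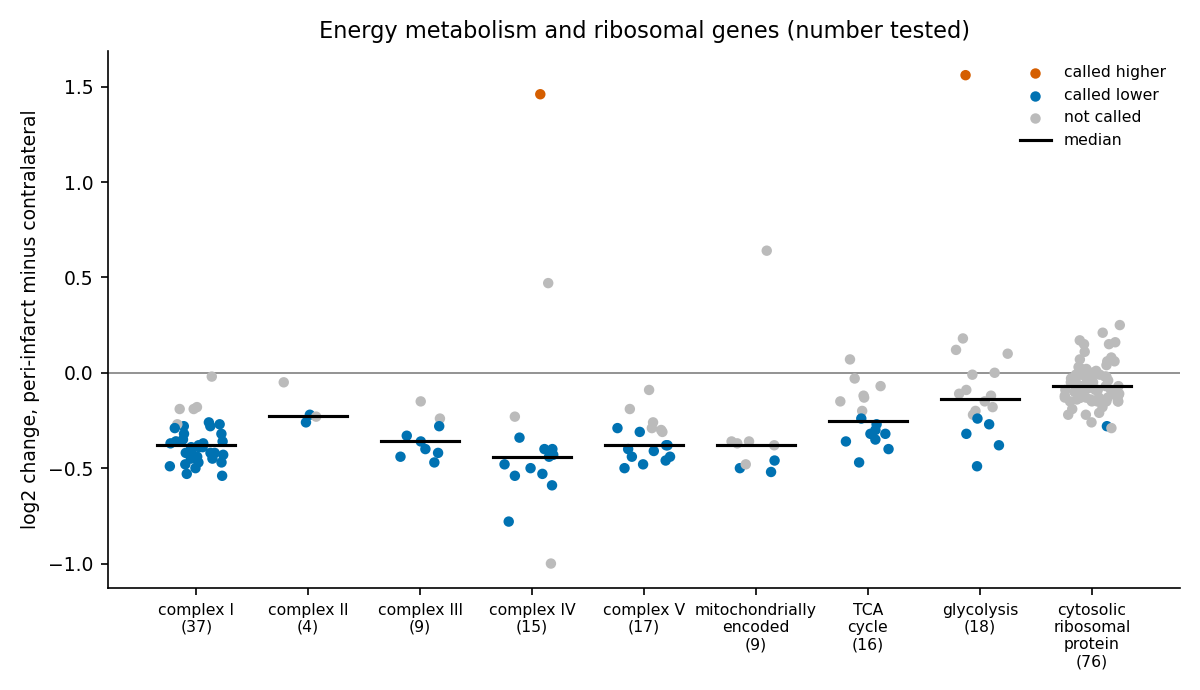
Log2 change of each tested gene of the 5 OXPHOS complexes, of mitochondrial DNA, of the TCA cycle, of glycolysis and of the cytosolic ribosome, coloured by call, with the median as a black line. Medians of the complexes lie between -0.44 and -0.23 and that of the ribosomal genes at -0.07.

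Of 9 mitochondrially encoded genes tested, 3 were called lower, mt-Nd1 (-0.52), mt-Nd2 (-0.50) and mt-Nd3 (-0.46), and 0 of them were called without animals 1, 2, 3 or 5 or without the replicate block, and 1 without animal 4. By DESeq2 it was 8. Of 17 genes of mitochondrial dynamics and assembly, 10 were called lower, among them Cycs, cytochrome c, at -0.53 and the ATP carrier Slc25a4 at -0.41. Ppargc1a, the coactivator that drives mitochondrial biogenesis, was at -0.35. Their count was 5, 4 and 3 without animals 1, 2 and 3 and 0 without animal 5. Of 16 TCA cycle genes, 9 were called lower and 0 higher, with Mdh1 at -0.47 and Idh3a at -0.36. Here 5 were called without animal 1 or animal 2, 3 without animal 3 and 1 without animal 5. Of 18 glycolysis genes, 5 were called lower and 1 higher, with lower calls at 2 or 3 without animals 1 to 4 and at 0 without animal 5. Hk2, a hexokinase form of activated glia and of muscle, was the latter. It was at 5.13, 3.99, 4.26, 4.84 and 3.98 CPM in contralateral and 10.5, 6.90, 23.6, 16.4 and 13 CPM in peri-infarct libraries (log2 change 1.56, SE 0.24, adjusted p = 0.00775). Cytosolic ribosomal protein genes were called lower for 1 of 76, Rpl38, at -0.28. Their count was 5 without animal 4 and 0 without each other animal or without the replicate block. After a GC and length trend was taken out in the same paired fit, the OXPHOS median was -0.28, with 52 genes called lower. In that fit 3 ribosomal genes were called higher and 0 lower. The part of transcript length in these changes was not tested.

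Of 25 Wnt genes, 4 were called higher and 1, Wnt10a, lower, against 10.2% and 9.1% of all genes. Wnt7b, a ligand of neurons, rose by 0.92 (SE 0.09), the receptors Fzd7 and Fzd1 by 1.03 and 0.68 and the antagonist Sfrp5 by 1.76. Higher calls of the Wnt list numbered 7 without animal 2, 1 without animal 3, 2 without animal 5 and 8 by DESeq2. Of 37 axon guidance genes, 10 were called higher and 1 lower. Dcc, the netrin receptor, rose by 1.15, Robo1, the Slit receptor, by 0.70, Sema4d by 0.67 and Plxnc1 by 0.62, and Efna5 was called lower at -0.67. Higher calls of the guidance list numbered 5 without animal 3 and 3 without animal 5, and Efna5 was not called without animals 1, 4 or 5. Senescence and p53 genes were called for 1 of 9 in each direction, near the shares of all genes called higher (10.2%) and lower (9.1%). Trp53inp1 was at 0.57 and Ccng1 at -0.29. Cdkn1a, which encodes p21, was at 12.2 ± 1.61 and 13.3 ± 0.73 CPM (SD, n = 5 each). Neither senescence call was kept without animal 3 or animal 5, nor that of Ccng1 without animal 2 or animal 4. Of 14 endoplasmic reticulum stress and heat shock genes, 2 were called lower and 1 higher, near the shares of all genes (9.1% and 10.2%). Atf4 and Ddit3 were called lower at -0.66 and -0.35 and Pdia4 higher at 0.53. Here 1 gene was called lower without animals 1, 2, 3 or 5, and 0 higher without animal 5.

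Markers of neighbouring regions moved with the comparison, and their part in it was not tested. Beside the striatal genes, 3 of 7 thalamic genes were called higher and 1, Slc17a6, lower, and the summed level of the list was 62.3 to 81.9 CPM in contralateral and 79.3 to 120 CPM in peri-infarct libraries. Of 7 hippocampal genes, 3 were called higher, and summed levels of 566 to 758 and 620 to 931 CPM overlapped. Of 5 choroid plexus genes tested, 2 were called higher. Ttr, the transthyretin of choroid plexus, was at 6.06, 1.09, 1.13, 0.0544 and 0.0982 CPM in contralateral and 44.7, 16.3, 2.96, 1.25 and 0.652 CPM in peri-infarct tissue, so most of it came from animals 1 and 2. Of 6 ependymal genes, 3 were called higher, with Foxj1, the master factor of motile cilia, at a log2 change of 1.78, and their summed level was 8.38 to 45.4 CPM in contralateral and 27.3 to 62.8 CPM in peri-infarct libraries. Of 5 neuroblast and proliferation genes, 3 were called higher, Cd24a (1.5), Mki67 (1.19) and Sox11 (0.44), and Dcx, which marks migrating neuroblasts, was at -0.10. Cd24a is shared with ependyma. Without animal 5 the higher calls were 1 thalamic, 1 hippocampal, 1 choroid plexus, 0 ependymal and 0 neuroblast genes. Without animal 3 they were 5 ependymal and 1 neuroblast gene, and without the replicate block 1 hippocampal and 0 choroid plexus genes. Lower thalamic calls numbered 0 without animals 3, 4 or 5.

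The change in vehicle mice was set against that in HPBCD mice for the 24 genes named for the size of their change. An interaction of region and treatment was called for 3 of the 24, where it was called for 1830 of 16758 genes (10.9%). That count was 394, 511 and 762 without vehicle animals 1, 2 and 5, and 392, 756 and 767 without HPBCD animals 3, 4 and 5, each left out alone. For 23 of the 24 the change was farther from 0 in libraries labelled HPBCD. Ucma rose by 3.46 in vehicle and 7.18 in HPBCD mice, Slc43a3 by 3.83 and 6.58, and Vamp1 had log2 changes of -1.74 and -2.62. The 24 genes were chosen on the vehicle change, so these are values of single genes and say nothing of the remaining genes.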

How the data were processed

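RNA was sequenced from 20 samples, of which the 10 vehicle samples were compared here. The authors cut out peri-infarct and contralateral tissue, prepared TruSeq Stranded mRNA libraries and sequenced 75-base pairs. They used bcl2fastq 2.19, Trimmomatic 0.32, STAR 2.5.2b with GRCm38, and htseq-count, with steps as in the study's methods and versions also in the submitters' processing notes. Which annotation release and which strand setting htseq-count used is not given in the sources used here. The deposited values are raw gene counts, 1 column per library, and no other column of sample values was present (0 columns of other samples). Entries with no feature, ambiguous entries and entries that were not unique were left out. In the vehicle libraries they made up 4.45 to 5.78%, 3.96 to 4.16% and 16.6 to 23.7% of all entries. HPBCD contralateral replicate 4, used in the interaction fit, held 9.503% with no feature, 8.03% ambiguous and 14445021 gene counts. Gene positions came from GENCODE M21, which held 45229 of the 46078 genes listed, and 99.931% of the vehicle gene counts.

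Vehicle libraries were fitted with edgeR 4.0.16 (R 4.3.3, TMM scaling, filterByExpr, quasi-likelihood F test, Benjamini-Hochberg adjustment over 15801 genes, threshold 0.05) with the animal as replicate block. The pairing rests on the animal identifier in the deposited names. Deviations of same-animal libraries correlated with a mean r of 0.072, over 0.1 in 2 of 5 pairs. Of the 5 peri-infarct libraries, 1 correlated best with the contralateral library of its own animal. Changes by animal are log2 ratios with a prior count of 2. An exact sign-flip test over 5 animals cannot go below p = 0.0625 (two-sided), so no single-gene permutation test was made. The interaction with treatment was fitted on all 20 libraries.

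The members and the 60 gene lists (1143 distinct genes, 1042 tested) were chosen with earlier results of these data known, and lists are described by counts and medians with no test of the list. Named were the 12 genes with the largest rise and the 12 with the largest fall. These were taken among called, named protein-coding genes with at least 5 CPM in the higher region and 1 direction in all animals. Also named were up to 4 called genes of at least 2 CPM per list and role. The first gene of a list or role and genes called against their list completed the rule. Cd3e, Drd2, Mki67, Nes, Slc17a7 and Synm fall outside this rule and were chosen after their values were seen, and Bst2, Ifitm3 and Trim30a were named for their promoters.

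Alternatives were no replicate block, DESeq2 1.42.0 with its own filtering, limma 3.58.1 voom, RLE and upper quartile scaling, no filter, at least 10 counts in every library, thinning to 17724292 counts, all 20 libraries in 1 fit, a minimum of 2-fold, removal of a GC and length trend, and each replicate left out. The fits were tested on simulated data, in which 200 of 15801 genes were changed. Of the calls, 6.83% were false by edgeR with the replicate block and 0% by edgeR without it. By DESeq2 and limma voom, both with the block, 18.4% and 7.36% were false. The changed genes were recovered at 75%, 65%, 77.5% and 75.5%, in that order. DESeq2 thus had the largest share of false calls in the simulation. That simulation changed fewer genes than were called in the data, each by 2-fold, and gave DESeq2 genes already filtered. Whether its share holds for the DESeq2 counts given here was not tested. As the strand setting is not known, reads from exons facing an antisense gene cannot be assigned with certainty. Over 10% of exonic length is shared in this way by Angpt1, Atp5j, Bdnf, Cacnb4, Ccer2, Cebpd, Csf1r, Cxcl16, Ftl1, Grin1, H2-DMa, Hexa, Icam1, Ina, Mt2, Myd88, Nefl, Nefm, Nrn1 and Pycard, and on the same strand by Ctsd, Itgam, Ppp3r1 and Spp1. Near-identical copies make C4b, H2, Fcgr, Calm, mitochondrially encoded and ribosomal protein genes uncertain. A small number of genes of these lists are not reported here by name.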

Additional observations from a re-analysis of the deposited data

Results flagged for a closer look

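Among 84 sets of 5 animal values examined, 3 held a value far from the other 4, where chance gives about 1 set in 20. Ccer2 changed by -3.20 on the log2 scale in animal 3, and the nearest animal was at -1.53. The hippocampal list had a median log2 change of 0.91 in animal 1 against 0.31 in the nearest animal. For the senescence and p53 list, animal 4 was at 0.25 and the nearest animal at -0.08.

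The region change differed between treatments for 3 of the 24 genes named for their vehicle change, by the edgeR interaction test over all genes. That share is near the 10.9% of all genes at which the interaction was called. The vehicle change minus the HPBCD change was -2.72 for Slc43a3 (adjusted p = 0.0277), -3.76 for Ucma (adjusted p = 0.0192) and 0.89 for Vamp1 (adjusted p = 0.043), each change being farther from 0 in the mice labelled HPBCD. Lcn2 was the exception to that order among the 24, with 5.98 in vehicle and 5.82 in HPBCD mice, and its interaction was not called.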

How the results depend on the processing

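The total of 3053 called genes was 13 (13 higher, 0 lower) against a minimum of 2-fold and ran from 491 (without animal 5) to 2636 (without animal 2) with each animal left out, with 273 to 1738 higher and 218 to 1083 lower. It was 3195 without the replicate block, 3257 by DESeq2, and 2915 to 3640 under the other settings. Of the genes called, 0 had the opposite sign in any setting run. The replicate block thus moved the total by less than 1.5 times. The interaction count of 1830 was 1577 with no replicate block, 1885 with at least 10 counts in every library and 392 to 2282 with 1 animal left out. A list median counted as moved when it shifted by more than the SD of its medians over animals. Lists with a wide spread could therefore shift far without being counted. With no replicate block the T and cytotoxic lymphocyte median went from 1.45 to 0.24 (SD 1.69). The striatal median went from 1.19 to 0.36 (SD 1.81), and neither counted. Of 900 list medians compared, 6 moved by more than the spread between animals. The hippocampal median was 0.86 with no replicate block, 0.79 by limma voom and 0.02 without animal 1, the clock median -0.11 without the GC and length trend and -0.11 without animal 4, and the B and plasma cell median -0.03 with at least 10 counts in every library. Of 5491 comparisons over 345 named genes, 0 reversed, 846 lost the call, 293 of them against the 2-fold minimum and 188 without animal 5, and 32 gained it. The cause was not tested. Genes near 3 counts per library are limited by depth.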
